A study of Caenorhabditis elegans with 6 samples.

Results

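The genes described here encode parts of the mitochondrial respiratory chain of the nematode Caenorhabditis elegans, and were found by name: every gene whose symbol was nuo, sdha, sdhb, sdhd, mev, ucr, cyc, isp, cox, atp, asb or asg followed by a number. The table held 19512 genes, and 43 of them carried such a symbol. They fell into 6 genes of complex I, 5 of complex II, 7 of complex III, 2 for cytochrome c, 7 subunits of complex IV, 7 assembly factors of complex IV that share the cox name, and 9 of complex V. The cox name covers subunits as well as proteins that only help to build the enzyme, and these were kept apart. Most complex I subunits carry other symbols and are given as a comparison list.

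The respiratory chain sits in the inner mitochondrial membrane. Complexes I and II pass electrons from NADH and succinate to ubiquinone, complex III passes them on to cytochrome c, and complex IV hands them to oxygen, while complexes I, III and IV pump protons that complex V, the ATP synthase, uses to make ATP. Most subunits are encoded in the nucleus and a few in the mitochondrial genome. In C. elegans lower activity of several of these genes by RNAi or mutation (nuo-2, nuo-6, isp-1, cyc-1, cox-5B and atp-3) is known to lengthen life, whereas loss of mev-1 shortens it.

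Poly-A RNA was measured in whole wild-type (N2) worms at the L4 stage. Cultures of about 10000 L1 larvae were fed for 28 hours with bacteria that carried an empty vector (control) or that produced double-stranded RNA against elt-2, a GATA transcription factor of the intestine (elt-2 RNAi). The series describes 3 biological replicates of each group, lettered A, B and C, and all animals of both groups were N2 with no transgene named. The method, 3SEQ, reads only the 3′ ends of transcripts, so that counts depend little on gene length. The design asks which genes differ between the groups.

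Libraries labelled control held 16568515 to 24168901 counts and those labelled elt-2 RNAi held 29578175 to 35047530, so depth followed the labels. The factors of TMM, which rescales library sizes so that most genes are level, also followed the labels. They were 3.45, 1.36 and 0.975 for libraries A, B and C labelled control. For those labelled elt-2 RNAi they were 0.698, 0.636 and 0.492. Genes with any count numbered 15114 to 16454 in the first set and 14326 to 14955 in the second. Levels below are counts per 1000000 of the TMM-scaled library (CPM) unless another scale is named, and a run of 3 values follows the letters A, B, C with the controls first. The short forms controls and RNAi libraries stand for libraries as labelled. elt-2 itself was at 4.08, 1.53 and 3.31 CPM in the controls and at 33.4, 5.81 and 178 CPM in the RNAi libraries. On the TMM scale the targeted gene was therefore higher in each RNAi library, against the label (edgeR: log2 fold change 4.60, SE 1.16, adjusted p = 0.0395). Divided by library size alone it was at 14.1, 2.09 and 3.23 against 23.3, 3.69 and 87.6 counts per 1000000, where the groups overlapped because control A exceeded elt-2 RNAi B (edgeR log2 fold change 2.57, adjusted p = 0.0502). Omitting elt-2 RNAi C gave 2.80 with an adjusted p of 0.135, and omitting control A gave 4.70 with 0.103. Directions are for that reason given between libraries as labelled, and none is read as an effect of less elt-2. Whether labels were exchanged, which would turn every direction given here, and whether elt-2 reads came from the double-stranded RNA that was fed, was not tested. No preparation batch was named, so a batch that followed the groups cannot be told apart from them. In whole animals, fewer cells of a type and less RNA per cell cannot be told apart either.

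Of the 43 respiratory chain genes, 42 had enough counts to be tested, and 12 of these were higher in the RNAi libraries (edgeR quasi-likelihood test over all 11474 tested genes, two-sided, Benjamini-Hochberg adjusted p below 0.10). Over all tested genes 13.0% were called higher and 15.9% lower (28.9% in either direction), against 28.6% and none of the chain genes. No chain gene was called lower by edgeR or by DESeq2 (which called 16.0% of all genes lower and 18.7% higher, 21 chain genes among the latter), and 1 (cox-11) had an unadjusted edgeR p below 0.05 in that direction. The fold change was positive for 32 genes and negative for 10. The median log2 fold change was 0.80, compared with -0.12 over all tested genes. In 19 genes all 3 libraries labelled elt-2 RNAi lay above all 3 labelled control, and in no tested gene did all 3 lie below. Over all tested genes the matching shares were 22.5% above and 24.2% below. These shares differed with mean level over the 6 libraries. At 100 CPM or more, 420 of 638 tested genes lay above and 5 below, against 12 and 0 of 14 chain genes. At 10 to 100 CPM it was 1096 and 311 of 2892 tested genes, against 7 and 0 of 24 chain genes.

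**Figure D1:**
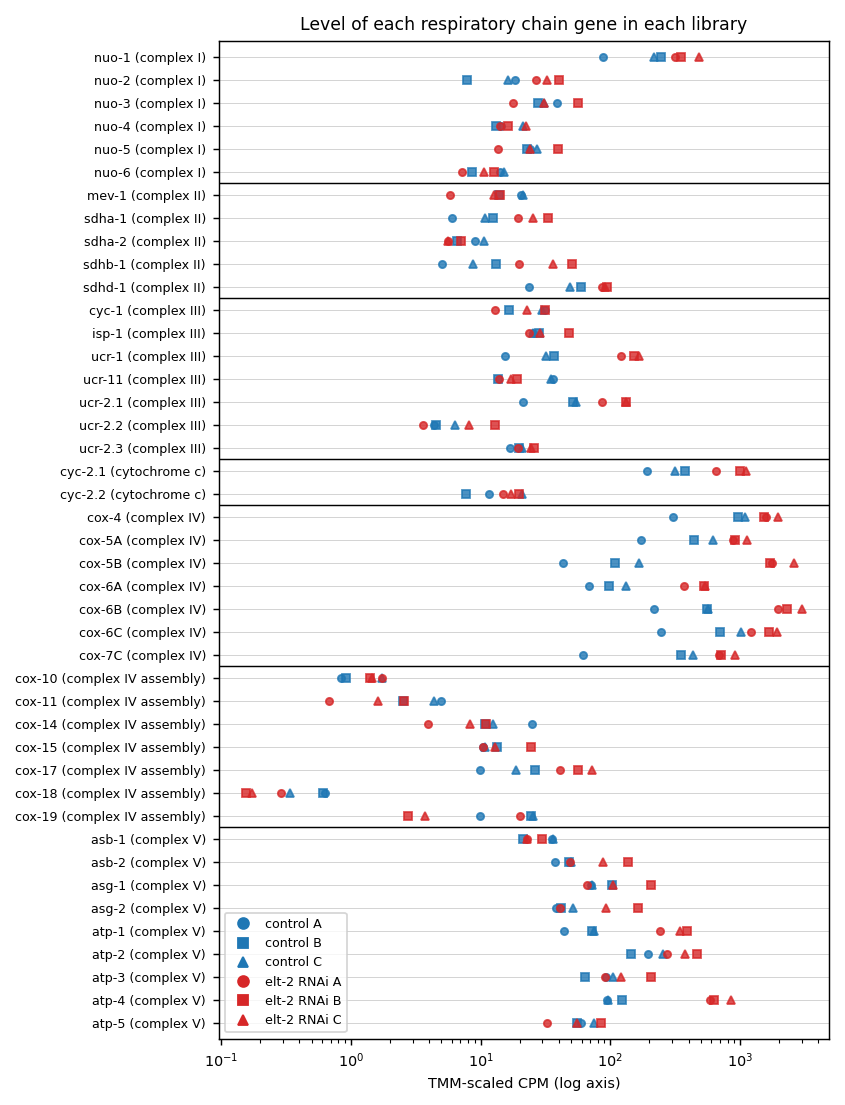
Level of each of the 43 genes in each of the 6 libraries, in TMM-scaled CPM on a log axis, grouped by complex. Blue marks are libraries labelled control, red marks those labelled elt-2 RNAi, and the shape gives the letter. All 7 complex IV subunits have their red marks to the right of their blue marks, and cox-5B has the widest gap.

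The balance of the calls depended on how libraries were scaled. Division by library size alone, the scaling used in the study, moved the median of all tested genes to -1.76 and that of the chain genes to -0.81, and then 3 chain genes were called higher (3.84% of all tested genes were) and 14 lower (52.3% of all). Library size after removal of the most abundant 3% of genes gave 8 chain genes higher (9.26% of all) and 5 lower (33.9% of all). Relative to the median of all genes the chain genes lay 0.92 higher with TMM and 0.95 higher with library size alone, both on the log2 scale. A scaling moves all genes of a library together, so these 2 differences had to be alike and lend each other no support. Of the 11474 tested genes, 7944 averaged under 10 CPM with a median of -0.47. Genes of like mean level are compared further below. Single libraries also mattered. Without elt-2 RNAi C only cox-5B and atp-4 were called higher and none was lower (3.5% of all genes were called higher and 0.157% lower), and without elt-2 RNAi B 5 chain genes were called higher (6.7% of all higher, 3.26% lower). Leaving out control A left 9 higher calls (9.01% of all higher, 5.01% lower) and leaving out control C left 12 (15% and 18.3%). Without control B there were 9 higher calls and 1 lower, ucr-11 (11% and 14.2% of all genes), and without elt-2 RNAi A 8 higher and 1 lower, cox-19 (7.86% and 5.48%). The calls for cox-5B and atp-4 were kept in each of these 6 fits and under each other scaling, filter and tool tried.

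**Figure D2:**
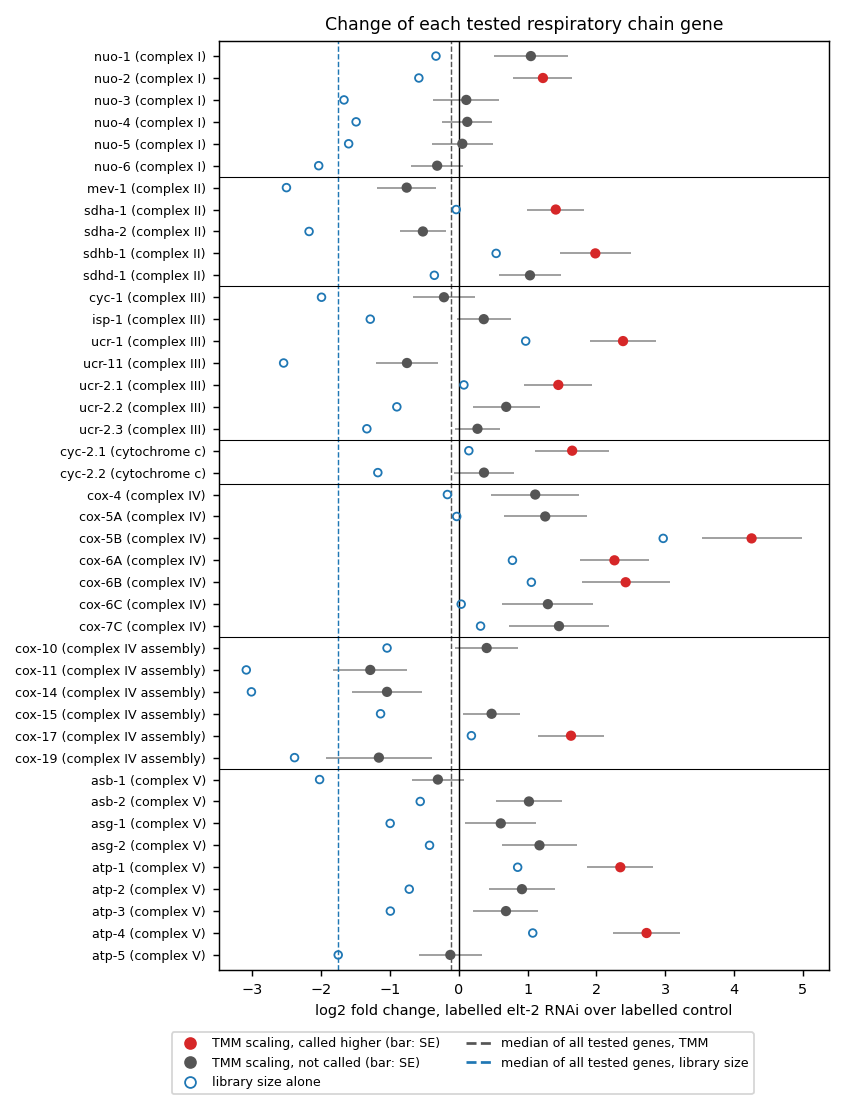
Log2 fold change of each of the 42 tested genes, libraries labelled elt-2 RNAi over those labelled control. Filled points with SE bars use TMM scaling (red, called higher, grey, not called), open circles use library size alone, and dashed lines are the medians of all tested genes under the same scalings, -0.12 and -1.76. Only cox-5B, cox-6B and atp-4 are called higher under both.

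Complex IV, cytochrome c oxidase, had the highest summed level of the groups. All 7 nuclear subunits were higher in every library labelled elt-2 RNAi than in any labelled control, 3 were called, and their median log2 fold change was 1.46. All 7 averaged 100 CPM or more, where 420 of 638 tested genes lay above in the same way and the median was 1.25. Summed over the 7 subunits, complex IV was at 1108.7, 3215.5 and 4004.5 CPM in the controls and at 8456.5, 9339.9 and 12030.2 CPM in the RNAi libraries. The lowest of the second set was more than the highest of the first, and control A was the lowest of all. As a share of all counts, with no rescaling, the subunits took 0.382%, 0.438% and 0.390% against 0.590%, 0.594% and 0.591%, and the groups again did not overlap. That separation rested on cox-5B and cox-6B, as the other 5 subunits together took 0.293%, 0.347% and 0.319% against 0.330%, 0.340% and 0.318%, and there the groups overlapped.

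cox-5B (F26E4.9, WBcel235 chromosome I, 9788725 to 9790050, plus strand), a nuclear-encoded subunit also known as cco-1 that is widely used as an RNAi target for lengthening life and switching on the mitochondrial unfolded protein response, differed most. It had 2473, 3383 and 3926 counts in the controls and 36551, 32622 and 44749 counts in the RNAi libraries. On the CPM scale this was 43.3, 108 and 167 against 1769.7, 1706.2 and 2597.6, or 106 ± 61.7 (SD, n = 3) against 2024.5 ± 497 (SD, n = 3). The groups were far apart in each library, and the gene moved from among the less abundant complex IV subunits to one of the most abundant. The edgeR log2 fold change came to 4.26 (SE 0.73, adjusted p = 0.0125), that is 19.1-fold. It stayed between 3.75 and 4.84 when any single library was left out, with edgeR adjusted p from 0.0124 to 0.0787, and was 2.97 with library size alone (adjusted p = 0.00168). Among 638 genes averaging 100 CPM or more it ranked 13 by log2 fold change. cox-7C lies on the same strand 14712 bases before it and did not pass the test.

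cox-6B (Y71H2AM.5, chromosome III, 2699663 to 2786859, plus strand), in mammals a subunit that faces the intermembrane space, was at 217, 559 and 569.6 CPM against 1965.3, 2288.6 and 2973.2. No library of one group came near the other. The edgeR log2 fold change came to 2.43 (SE 0.64, adjusted p = 0.0433), and the call was lost without any 1 library labelled elt-2 RNAi (adjusted p = 0.106 without A, 0.121 without B and 0.185 without C). Its annotated span of 87197 bases overlaps 14 other protein-coding genes, 10 of them on the other strand, and as the use of strand in counting was not stated its counts are uncertain. cox-6A (F54D8.2, chromosome III, 5081724 to 5082995, plus strand), another small nuclear subunit, was at 68.9, 97.2 and 133 CPM against 369, 526 and 539. The groups did not overlap, and the edgeR log2 fold change came to 2.26 (SE 0.50, adjusted p = 0.0285, or 0.145 without elt-2 RNAi C).

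The other 4, all small nuclear subunits, did not pass the test, and in each of them control A was far below controls B and C. cox-4 was at 302, 968 and 1081.5 CPM against 1583.5, 1521.9 and 1972.3 (log2 fold change 1.11, SE 0.64). cox-5A was at 172, 439 and 614 CPM against 878, 919.6 and 1128.9 (1.26, SE 0.60). For both the groups did not overlap, but the spread among controls was wide, 784 ± 421 CPM for cox-4 and 409 ± 223 CPM for cox-5A (SD, n = 3). cox-6C lay at 244 to 1009.5 CPM against 1204.4 to 1911.9 and cox-7C at 61.8 to 430.3 CPM against 686 to 907, and they had log2 fold changes of 1.29 and 1.46, with edgeR adjusted p of 0.188 and 0.179. With library size alone the values of cox-4 and cox-5A turned slightly negative, -0.17 and -0.03.

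The composition of complex IV transcripts, which needs no scaling between libraries, also differed. cox-5B made up 3.90%, 3.36% and 4.16% of the counts of the 7 subunits in the controls, and 20.9%, 18.3% and 21.6% in the RNAi libraries. cox-6B made up 19.6%, 17.4% and 14.2% against 23.2%, 24.5% and 24.7%. Both shares were higher in every library labelled elt-2 RNAi. The shares of cox-4, cox-5A and cox-6C were lower in each of them, with cox-4 at 27.2%, 30.1% and 27.01% against 18.7%, 16.3% and 16.4%. A share within a complex can fall because another member gained, and these shares say only that the 7 subunits did not change by one common factor.

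**Figure D3:**
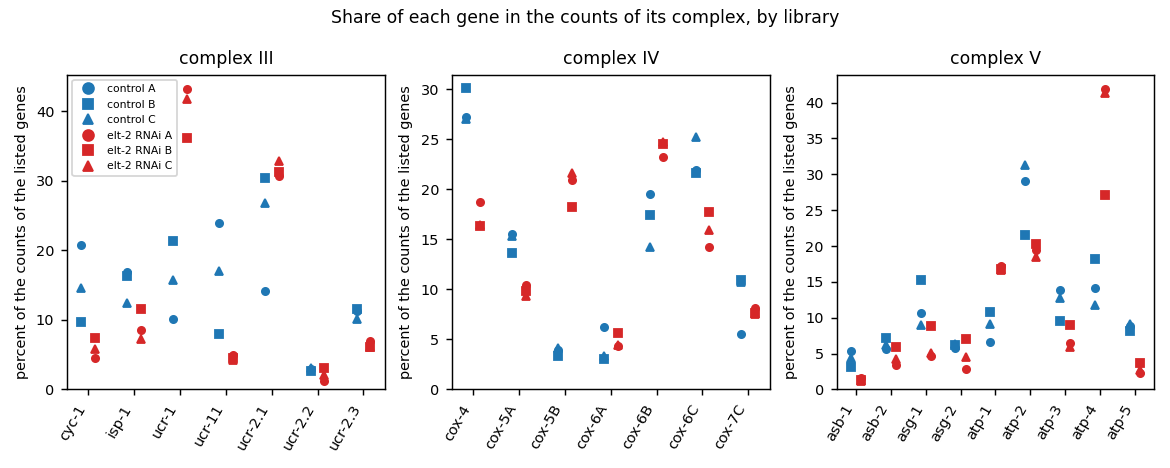
Percent of the counts of complex III, complex IV and complex V that each gene took, by library. Blue marks are libraries labelled control and red marks those labelled elt-2 RNAi, with the shape giving the letter. The shares of ucr-1, cox-5B, cox-6B, atp-1 and atp-4 are higher in all 3 red libraries than in any blue one.

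The 7 genes named cox that act in assembly were far less abundant than the subunits, averaging 0.366 CPM (cox-18) to 37.4 CPM (cox-17) over the 6 libraries, where the subunits averaged 289 CPM (cox-6A) to 1428.8 CPM (cox-6B). Their median log2 fold change was -0.32 over the 6 tested, 3 positive and 3 negative, and cox-17 alone was called. cox-17 (F40G9.2, chromosome III, 190986 to 191981, plus strand), which in yeast carries copper to complex IV, was at 9.93, 26.1 and 18.8 CPM against 40.7, 56.4 and 72.7. Both groups stood apart, and the edgeR log2 fold change came to 1.63 (SE 0.48, adjusted p = 0.0553, with 0.121 without elt-2 RNAi B and 0.198 without elt-2 RNAi C). cox-10 and cox-15, which in yeast make heme A, had log2 fold changes of 0.40 and 0.48, and neither passed.

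cox-11, whose yeast counterpart delivers copper, was at 4.97, 2.52 and 4.37 CPM against 0.678, 2.56 and 1.63. Control B and elt-2 RNAi B were about level, and the log2 fold change of -1.29 (SE 0.54) did not pass the edgeR test (adjusted p = 0.125). cox-14, an assembly factor, had a log2 fold change of -1.04 with overlapping groups. cox-19, another copper protein in yeast, differed widely between replicates. It was at 9.96, 24.5 and 25.2 CPM in the controls and at 20.1, 2.77 and 3.72 CPM in the RNAi libraries, so that elt-2 RNAi A sat among the controls. Its log2 fold change was -1.16 with an SE of 0.77, the largest among the chain genes. When elt-2 RNAi A was left out the value was -2.55 and cox-19 was called lower (edgeR adjusted p = 0.0534). cox-18, a membrane insertion factor, had 36, 19 and 8 counts against 6, 3 and 3, too few to be tested.

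Complex V, the ATP synthase, had 2 of 9 genes called higher and a median log2 fold change of 0.92. atp-4 (T05H4.12, chromosome V, 6426246 to 6427112, minus strand), a coupling factor that joins the membrane part to the catalytic part, was at 93.8, 122 and 95.7 CPM against 589.8, 626 and 849. The controls differed little from each other and all 3 libraries labelled elt-2 RNAi were well above them. The edgeR log2 fold change came to 2.73 (SE 0.49, adjusted p = 0.0147), between 2.55 and 2.91 with any 1 library left out, and 1.07 with library size alone (adjusted p = 0.0756). T05H4.11 overlaps it on the same strand, so some counts could belong to either gene.

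atp-1 (H28O16.1, chromosome I, 12652277 to 12654655, plus strand), the alpha subunit of the catalytic head, was at 43.9, 72.6 and 74.6 CPM against 242, 388 and 343. Again the groups stood apart, and the edgeR log2 fold change came to 2.35 (SE 0.48, adjusted p = 0.0226, or 0.121 without elt-2 RNAi C). Its partner atp-2, the beta subunit, was at 193, 145 and 255 CPM against 274, 468 and 379. The groups of atp-2 came close, at 255 and 274, and its log2 fold change of 0.92 (SE 0.48) did not pass (edgeR adjusted p = 0.195). As shares of complex V counts, atp-1 was at 6.60%, 10.8% and 9.17% against 17.2%, 16.8% and 16.7%, whereas atp-2 was at 29.1%, 21.6% and 31.3% against 19.5%, 20.3% and 18.4%. The alpha share was thus higher and the beta share lower in every library labelled elt-2 RNAi.

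The remaining 6 genes of complex V differed less than atp-1 and atp-4, and most were highest in elt-2 RNAi B. atp-3, the stalk subunit known as OSCP, was at 92.7, 64.1 and 104 CPM against 91.7, 207 and 121 (log2 fold change 0.69, SE 0.47). asb-2, a b subunit of the stalk, was at 37.5, 47.9 and 49.998 CPM against 48.9, 138 and 88.0 (1.02, SE 0.48). asg-2, a g subunit, was at 38.0, 41.5 and 51.4 CPM against 40.6, 163 and 92.1 (1.17, SE 0.54). In each of these genes elt-2 RNAi A lay within the controls and elt-2 RNAi B stood highest, so the groups overlapped. asg-1, the other g subunit, was at 0.61 on the log2 scale and overlaps K07A12.5 on the other strand, and atp-5, the d subunit, was at -0.12. asb-1, the b subunit known from the germline, was at 35.6, 21.4 and 35.9 CPM against 22.8, 29.5 and 22.99, at a log2 fold change of -0.30 (SE 0.37). None of these 6 passed.

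Complex III, which carries electrons from ubiquinone to cytochrome c, had both its calls among the core proteins, relatives of mitochondrial processing peptidases. ucr-1 (F56D2.1, chromosome III, 5592135 to 5594401, plus strand) was at 15.4, 36.7 and 32.0 CPM against 121, 152 and 167. All 3 RNAi libraries were above all controls by a wide margin. The edgeR log2 fold change came to 2.39 (SE 0.48, adjusted p = 0.0223, or 0.114 without elt-2 RNAi C), and it took 10.2%, 21.4% and 15.8% of complex III counts against 43.2%, 36.1% and 41.8%. ucr-2.1 (VW06B3R.1, chromosome X, 12018429 to 12021206, plus strand), the core protein 2 copy with the most counts, was at 21.4, 52.0 and 54.5 CPM against 85.9, 132 and 131. Its groups did not overlap, and edgeR gave 1.45 on the log2 scale (SE 0.49, adjusted p = 0.0794). That call was kept only without control C: the adjusted p was 0.118 without control A, 0.119 without control B, and 0.121, 0.170 and 0.230 without RNAi library A, B or C.

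The redox subunits of complex III did not follow ucr-1. isp-1, the Rieske iron-sulfur protein, was at 25.5, 28.0 and 25.2 CPM against 23.8, 48.4 and 28.9. cyc-1, cytochrome c1, was at 31.4, 16.6 and 29.7 CPM against 12.8, 31.1 and 22.9. Both sets of groups overlapped, with log2 fold changes of 0.36 (SE 0.39) and -0.22 (SE 0.45), and cyc-1 shares its place with C54G4.7 on the other strand. ucr-11, a small subunit, was at 36.0, 13.7 and 34.7 CPM against 13.9, 18.99 and 17.1, where control B was the lowest of all. Its log2 fold change of -0.75 did not pass, and without control B it was -1.14 and called lower (edgeR adjusted p = 0.0881). ucr-2.2 and ucr-2.3, further copies of core protein 2, were at 0.69 and 0.27 on the log2 scale, and neither passed.

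Cytochrome c itself is encoded by cyc-2.1 and cyc-2.2. cyc-2.1 (E04A4.7, chromosome IV, 4747895 to 4749012, minus strand) was at 192, 375 and 315 CPM against 653, 999 and 1110.9. No library crossed between groups, and the edgeR log2 fold change came to 1.65 (SE 0.54, adjusted p = 0.0718). The call was lost without control B (adjusted p = 0.115) and without elt-2 RNAi A, B or C (0.127, 0.170 and 0.238). cyc-2.2 was at 11.6, 7.66 and 20.8 CPM against 14.96, 19.6 and 17.1, with overlapping groups and a log2 fold change of 0.37. cyc-2.1 gave 93.8% to 98.5% of the counts of the pair in all 6 libraries.

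Complex II, succinate dehydrogenase, had 2 of 5 genes called higher, both for catalytic subunits, and a median log2 fold change of 1.03. sdhb-1 (F42A8.2, chromosome II, 9350714 to 9352731, minus strand), the iron-sulfur subunit, was at 5.02, 13.1 and 8.79 CPM against 19.9, 50.3 and 36.3. sdha-1 (C03G5.1, chromosome X, 8542757 to 8546021, minus strand), the flavoprotein subunit, was at 6.02, 12.5 and 10.8 CPM against 19.5, 32.9 and 25.4. Neither gene had overlapping groups, and the log2 fold changes were 1.98 (SE 0.51, edgeR adjusted p = 0.0414) and 1.41 (SE 0.41, edgeR adjusted p = 0.0559), the second of which turned to -0.038 with library size alone. The sdhb-1 call was lost without elt-2 RNAi B or C (adjusted p = 0.111 and 0.154), and that of sdha-1 without control A or elt-2 RNAi B or C (0.124, 0.139 and 0.175). mev-1, the cytochrome b subunit that anchors the enzyme, was at 20.5, 13.8 and 21.1 CPM against 5.86, 14.2 and 12.8. Its log2 fold change was -0.76 (SE 0.43) with overlap at control B, and it did not pass. Its share of complex II counts was 31.9%, 13.1% and 21.1% against 4.26%, 7.16% and 7.49%, lower in every library labelled elt-2 RNAi. sdhd-1, the other anchor, had a log2 fold change of 1.03 with groups that did not overlap (23.7 to 59.6 CPM against 86.7 to 93.5) and an edgeR adjusted p of 0.137.

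Complex I, NADH dehydrogenase, had 1 call among its 6 nuo genes and a median log2 fold change of 0.12. nuo-2 (T10E9.7, chromosome I, 6530131 to 6531963, minus strand), a core subunit of the peripheral arm, was at 18.5, 7.91 and 16.4 CPM against 26.9, 40.4 and 32.7. The groups did not overlap, and the edgeR log2 fold change came to 1.22 (SE 0.43, adjusted p = 0.0842), but was -0.58 with library size alone. This call was kept only without control C: the adjusted p was 0.124 without control A, 0.173 without control B, and 0.118, 0.174 and 0.210 without RNAi library A, B or C. nuo-1, the NADH-binding flavoprotein, was at 87.9, 247 and 218 CPM against 313, 349 and 481, groups that did not overlap but had a wide spread, at a log2 fold change of 1.05 (SE 0.54). nuo-6, an accessory subunit that overlaps cutl-6 on the other strand, was at 14.1, 8.62 and 15.2 CPM against 7.17, 12.7 and 10.6, at a log2 fold change of -0.31 (SE 0.38). nuo-3 and nuo-4, accessory subunits, and nuo-5, the large iron-sulfur subunit, had log2 fold changes of 0.11, 0.12 and 0.05. Among all chain genes the SE was smallest for ucr-2.3, sdha-2 and nuo-4 (0.33, 0.33 and 0.37) and largest for cox-19, cox-5B and cox-7C (0.77, 0.73 and 0.72).

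Over the 7 groups of genes, 9 members took a larger share of their own group's counts in every library labelled elt-2 RNAi, 19 took a smaller share in every one, and 15 overlapped. The 9 were sdha-1, sdhb-1, ucr-1, ucr-2.1, cox-5B, cox-6B, cox-17, atp-1 and atp-4. Shares within a group sum to a whole, so these counts are not independent of each other.

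Pairs of genes for the same subunit were compared as the log2 ratio of their counts within each library, 7 pairs in all. The ratio of sdha-1 to sdha-2 was -0.58, 0.92 and 0.03 in the controls and 1.80, 2.22 and 2.18 in the RNAi libraries. The groups did not overlap and differed by 1.94, and the exact two-sided permutation p was 0.1, the smallest that 3 libraries against 3 can give (adjusted over the 7 pairs, 0.233). The ratio of ucr-2.1 to ucr-2.3 was 0.33, 1.39 and 1.39 against 2.14, 2.36 and 2.42, a difference of 1.27 with the same exact permutation p of 0.1. sdha-2 itself was at 9.02, 6.57 and 10.6 CPM against 5.57, 7.06 and 5.57. The other 5 pairs had overlapping ratios. The ratio of asb-1 to asb-2 differed by -1.18 and that of cyc-2.1 to cyc-2.2 by 1.19, each with an exact permutation p of 0.2.

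The mitochondrial genome encodes further subunits of complexes I, III, IV and V, and 12 of its protein-coding genes were in the table. None was called by edgeR or DESeq2, 11 had negative log2 fold changes, and the median was -0.71. Their range was wide, from CYTB, cytochrome b of complex III, at -0.004 to COX3 of complex IV at -1.13, and ND2 of complex I was the positive one at 0.25. As a share of all counts the 12 genes took 1.72%, 0.398% and 0.369% in the controls and 0.0804%, 0.211% and 0.140% in the RNAi libraries. The groups stood apart in that share, but on the TMM scale they overlapped in each of the 12 genes. The TMM-scaled sum of the 12 was 5000.3, 2921.6 and 3783.4 CPM against 1151.9, 3321.7 and 2841.4 CPM, which overlapped too. With library size alone each of the 12 was called lower (7 of them with library size after removal of the top 3% of genes). Of all tested genes 52.3% and 33.9% were called lower under those scalings.

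Counts of the nuclear chain genes were divided by counts of those 12 genes in the same library, a ratio that needs no scaling. It was 0.490, 1.70 and 1.55 in the controls and 9.92, 4.18 and 5.80 in the RNAi libraries. For complex IV alone, over its 3 mitochondrial subunits, it was 0.780, 4.28 and 5.34 against 27.7, 11.9 and 15.3. For complex V it was 1.32, 2.40 and 1.71 against 16.5, 6.77 and 9.82. In both complexes and in the sum every library labelled elt-2 RNAi had a higher ratio than every control, with control A lowest and elt-2 RNAi A highest. As a share of all counts the nuclear side of the sum did not separate the groups. The 43 nuclear genes took 0.845%, 0.675% and 0.571% of all counts in the controls and 0.798%, 0.884% and 0.810% in the RNAi libraries. The share of the 12 mitochondrial genes, given above, did separate them. On the TMM scale this was the other way round. The 43 nuclear genes then summed to 2452.0 to 5858.8 CPM in the controls and 11422 to 16483.8 CPM in the RNAi libraries. The 12 mitochondrial genes overlapped, at 2921.6 to 5000.3 CPM against 1151.9 to 3321.7 CPM. For complex III the gap in the count ratio was small, 0.965 in control B against 1.37 in elt-2 RNAi B. So was that for complex I, 0.191 in control B against 0.272 in elt-2 RNAi B, with only the 6 nuo genes counted on the nuclear side.

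**Figure D4:**
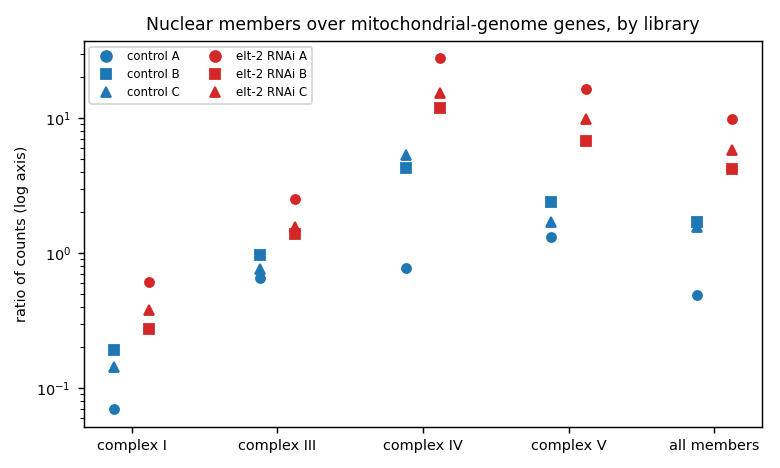
Counts of nuclear respiratory chain genes divided by counts of the protein-coding genes of the mitochondrial genome, for each complex with mitochondrial subunits and for all 43 members over the 12 genes, on a log axis. Blue marks are libraries labelled control and red marks those labelled elt-2 RNAi. The red marks lie above the blue ones in each column, from 4.18 to 9.92 against 0.490 to 1.70 for all members.

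Calls went with mean level. The 12 called genes had a median level of 141 CPM over all libraries and the other 30 a median of 26.6 CPM. This mean includes the RNAi libraries, so a gene that was higher there also had a higher mean. The mean and the fold change are therefore not independent. Across the 42 tested genes Spearman's rho between mean CPM and log2 fold change was 0.71, and across all 11474 tested genes it was 0.36. Genes share libraries and are not independent, so these values are descriptions. Transcript length had a rho of -0.07 with the fold change.

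Chain genes were therefore set beside genes of like mean level over the 6 libraries. These ranges depend on the RNAi values too. In the controls the called atp-1 and cox-6A averaged 63.7 and 99.6 CPM, and the uncalled asg-1 and atp-3 82.2 and 86.9 CPM. Their RNAi levels placed them in the range of 100 CPM or more. The same can hold for the other genes of that range and for ranks among them. Of the 14 chain genes averaging 100 CPM or more, 6 were called higher (42.9%) and none lower, compared with 21.2% and 2.04% of the 638 genes in that range, and their medians were 1.38 and 1.25 on the log2 scale. Of the 24 with 10 to 100 CPM, 6 were called higher (25%) and none lower, compared with 22.4% and 6.57% of 2892 genes, and their medians were 0.32 and 0.56. None of the 4 below 10 CPM was called, where 8.89% of all genes were called higher and 20.4% lower. The median of the chain genes was thus above that of genes of like mean level in the highest range and below it in the middle range. cox-5B and atp-4 ranked 13 and 56 of 638 in theirs. cox-6B ranked 77, atp-1 86 and cox-6A 95.

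**Figure D5:**
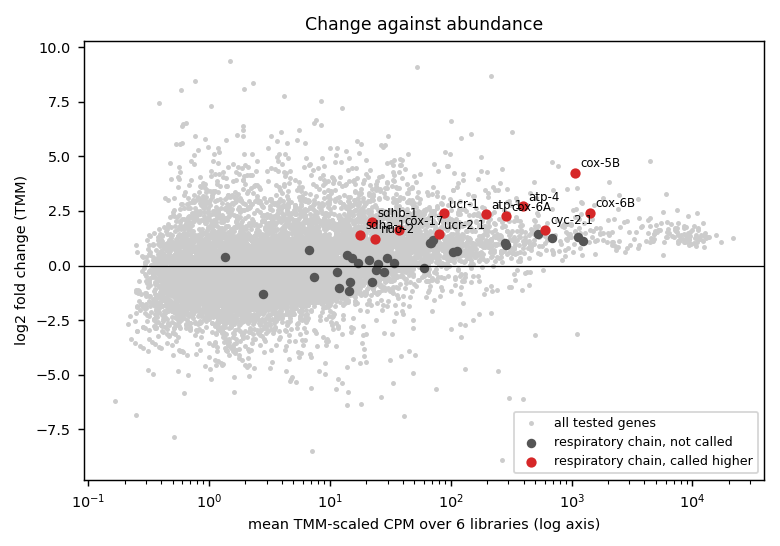
Log2 fold change (libraries labelled elt-2 RNAi over those labelled control) against mean TMM-scaled CPM over the 6 libraries on a log axis, for all 11474 tested genes (light grey) and the 42 tested chain genes (dark grey, not called, red, called higher, with names). The cloud of all genes rises with this mean, which includes the RNAi libraries. Its median is 1.25 above 100 CPM, and cox-5B stands above it at 4.26.

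Other mitochondrial genes were examined by lists. Of all tested genes 13.0% were called higher and 15.9% lower, or 3.84% and 52.3% with library size alone. Without elt-2 RNAi C 3.5% were called higher and 0.157% lower. Among 26 nuclear complex I genes with other symbols, 7 were called higher and 1 lower, and the median log2 fold change was 0.88. ndua-2 (log2 fold change 2.65), ndua-12 (1.98) and nduf-6 (1.81) were the largest, and ndua-1 was the one called lower (-1.01). With library size alone none of the 26 was called higher and 4 were called lower, and without elt-2 RNAi C 1 was called higher. DESeq2 called 15 of the 26 higher and none lower (18.7% and 16.0% of all tested genes). Among 21 assembly and coenzyme Q genes, 5 were higher and 2 lower with a median of 0.53. coq-4 (3.64), which is needed to make ubiquinone, and immp-1 (3.42), an inner membrane peptidase, were the largest, followed by coa-5 (2.04), and bcs-1 (-1.60), which in yeast inserts the Rieske protein, was called lower. With library size alone 2 of the 21 were higher and 9 lower.

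Enzymes of pyruvate dehydrogenase and the tricarboxylic acid cycle had 2 of 20 called higher and none lower by edgeR or DESeq2, with a median of 0.23. Of all tested genes edgeR called 13.0% higher and 15.9% lower, and DESeq2 18.7% and 16.0%. The enzymes called by edgeR were cts-1, citrate synthase (2.79), and dlst-1, a subunit of the oxoglutarate dehydrogenase complex (1.201). Carriers of the inner membrane and the porin had 2 of 16 called higher, the ADP/ATP carriers ant-1.3 (2.62) and ant-1.4 (1.87), and misc-1 called lower (-0.92). These 2 carriers averaged only 12.4 and 2.13 CPM over the 6 libraries. The far more abundant ant-1.1, at 2852.6 CPM, had a log2 fold change of 2.05 and groups that did not overlap. It did not pass (edgeR adjusted p = 0.110). Of 16 genes of the mitochondrial unfolded protein response and quality control, 3 were called higher and 1 lower. These were pdr-1 (1.74), the worm parkin, timm-23 (1.52), an import channel, and lonp-1 (1.15), a protease, whereas dve-1 (-2.09), a regulator of that response, was called lower. The chaperones hsp-6 and hsp-60, the usual reporters of the response, did not pass. With library size alone the calls became 0 higher and 9 lower for the enzymes, 1 and 6 for the carriers, and 0 and 8 for the unfolded protein response genes. Under that scaling 3.84% of all tested genes were called higher and 52.3% lower.

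Lists of tissue markers were summed in the same libraries. The 7 intestine markers summed to 307 to 809.6 CPM in libraries labelled control and to 1624.7 to 3671.6 CPM in those labelled elt-2 RNAi, with 3 called higher and 1 lower. Most of that sum was asp-1, an intestinal protease, at 226 to 669 CPM against 1297.9 to 3278.9 (log2 fold change 2.45). act-5, the actin of microvilli (2.25), and pept-1, a peptide transporter (2.05), were called higher as well and elt-7, a GATA factor (-1.44), lower, while ifb-2 (-0.03), vha-6 (0.69) and ges-1 (-1.18) did not pass. The 7 germline markers summed to 202 to 539.7 CPM against 786 to 1065.3 (1 higher, 1 lower), and the 6 body wall muscle markers to 444 to 2707.7 CPM against 2262.4 to 3069.2 (none called by edgeR and 1 higher by DESeq2). Of 27 tested sperm genes 8 were higher and of 118 tested cuticle genes 22 were higher and 6 lower. Beside these marker calls, 13.0% of all tested genes were called higher and 15.9% lower. These counts moved with the libraries used and their scaling. Without control C 70 cuticle genes were called higher and 21 lower and 20 sperm genes higher (15% of all genes were higher and 18.3% lower). Without elt-2 RNAi C edgeR called no cuticle or intestine gene in either direction and 1 sperm gene higher (3.5% and 0.157% of all). With all libraries DESeq2 called 44 cuticle genes higher and 9 lower and 3 intestine genes higher and 1 lower (18.7% and 16.0% of all). With library size alone 21 cuticle genes were higher and 27 lower, 3 sperm genes were higher, and 1 intestine marker was higher and 3 lower (3.84% and 52.3% of all). Each marker of intestine, germline and muscle had counts in all 6 libraries. Cuticle genes took 2.26%, 3.46% and 14.2% of all counts in the controls and 11.1% to 11.3% in the RNAi libraries, so that control C lay above every RNAi library and controls A and B below. The part of tissue makeup in the chain results was not tested.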

How the data were processed

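The values are raw counts of reads for each gene as deposited by the authors, with 1 column for each of 6 3SEQ libraries. Bowtie 0.12.7 is named in the submitters' processing notes, and the study used uniquely mapped reads. The counting program, genome build, annotation and use of strand were not given in the sources used here. Counts of near-identical or overlapping genes may be split or shared, and 13 of the 43 members overlap another protein-coding gene, 9 of them on the opposite strand. All value columns were mapped to a sample.

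Sequence names were paired with WBcel235 (Ensembl release 115), which matched 19081 of 19512 genes (97.8%). Coordinates are of that build and not of the deposited table. Names of 12 mitochondrial genes came from the RefSeq table of the same assembly by position (at least 90% in common).

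Counts were tested with edgeR 4.0.16 in R 4.3.3 (TMM, filterByExpr, quasi-likelihood test, no covariate), with a call at an adjusted p below 0.10. DESeq2 1.42.0 was an alternative. The SE is the log2 fold change divided by the root of the F statistic. CPM are counts per 1000000 of the scaled library. Ratios of gene pairs had a pseudocount of 0.5. The biological coefficient of variation was 0.525, and total counts of 16568515 to 35047530 set the depth. No molecular identifiers were used, so no counting intervals were drawn. The study's rank product was not run.

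Named genes were elt-2, all members by complex (called ones in full, at most 6 in each direction, and a set of well-known subunits always), members of the tested pairs, up to 3 called genes of each comparison list with the largest change, and the 3 members with the smallest and largest SE. cox-11, cox-14, cox-15, cox-10, ndua-1, bcs-1, ant-1.1, lonp-1, hsp-6, hsp-60 and the mitochondrial genes were named outside that rule, after their values were seen. The members and lists were chosen with earlier results of these data known. Alternatives were other scalings, filters, DESeq2, a replicate block, other thresholds and leaving out each library. The fit that omits control B and elt-2 RNAi B together was added once the data had been seen.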

Additional observations from a re-analysis of the deposited data

How the results depend on the processing

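The count of chain genes called higher, 12, was 3 with library size alone, 21 with DESeq2, 4 without both B libraries (chosen after seeing the data) and 7 at an adjusted p below 0.05, and it ran from 2 (without elt-2 RNAi C) to 12 with 1 library left out. The count called lower, 0, was 14 with library size alone, 5 with library size minus the top 3% of genes, 1 with at least 10 counts in every library, 1 without both B libraries, and 0 to 1 with 1 library left out. The median log2 fold change, 0.80, was -0.81, 0.25 and 0.36 with library size alone, without the most abundant 3% and without both B libraries. Without a filter and at 2-fold the counts stayed within 1.5 times. Over all genes 7.57% were higher and 8.36% lower without both B libraries. Each of the 7 pair ratios moved by less than 1 SD between replicates under each alternative run on it.

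The letters did not pair the libraries. Deviations from the group means of same-lettered libraries had correlations of -0.21, -0.57 and -0.10 for A, B and C over the tested genes. With the replicate block 7 chain genes were called higher and none lower by edgeR (7.67% and 2.95% of all genes), and the median was 0.76.

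Signs that turned were mostly of uncalled genes. With library size alone log2 fold changes were -0.33 for nuo-1, -0.58 for nuo-2, -1.67 for nuo-3, -1.49 for nuo-4, -1.60 for nuo-5, -0.038 for sdha-1, -0.36 for sdhd-1, -1.29 for isp-1, -0.90 for ucr-2.2, -1.34 for ucr-2.3, -1.18 for cyc-2.2, -0.17 for cox-4, -0.031 for cox-5A, -1.04 for cox-10, -1.14 for cox-15, -0.56 for asb-2, -0.998 for asg-1, -0.43 for asg-2, -0.72 for atp-2 and -0.995 for atp-3. Without the most abundant 3% they were -0.45 for nuo-3, -0.45 for nuo-4, -0.49 for nuo-5, -0.18 for isp-1, -0.28 for ucr-2.3, -0.20 for cyc-2.2, -0.15 for cox-10 and -0.054 for cox-15. With at least 10 counts in every library nuo-3 and nuo-5 were at -0.017 and -0.067, and with the block at -0.034 and -0.076. Without both B libraries nuo-3, nuo-4, nuo-5, isp-1 and cyc-2.2 were at -0.59, -0.015, -0.51, -0.010 and -0.086. With 1 library left out nuo-3 ran from -0.33 to 0.50, nuo-4 from -0.091 to 0.46, nuo-5 from -0.31 to 0.42, cyc-1 from -0.51 to 0.14 and atp-5 from -0.43 to 0.23. The cause of these shifts was not tested. Depth limits cox-18 and cox-10, with at most 36 and 48 counts in a library.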
